A study of Mus musculus with 8 samples.

Results

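The IL-6 family is described here through 9 genes in bone marrow mesenchymal stem/progenitor cells (MSPCs): the cytokines Il6 and Lif, the receptor chains Il6st (gp130), Il6ra, Lifr, Osmr and Il11ra1, the transcription factor Stat3 and the feedback inhibitor Socs3. They were found by symbol among the 52636 genes of the deposited count table, and all 9 passed a filter of at least 10 counts summed over the libraries, which needs no count in any single library. The genes were chosen by their level in MSPCs and by the CTR against cKO difference, so that both of these are given as a description without a test. Cytokines of the IL-6 family signal by bringing gp130 together with a second receptor chain, which activates JAK kinases and STAT3. STAT3 induces Socs3, whose product binds gp130 and the JAKs and limits the signal. Marrow stromal cells are known as a source of IL-6 and as responders to LIF and oncostatin M in blood and bone formation.

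The 8 libraries were polyA RNA of MSPCs, each from 1 mouse, with 4 control mice (CTR, Flk2-cre+ Cxcr4fl/+) and 4 knockout mice (cKO, Flk2-cre+ Cxcr4fl/fl). All mice were C57BL/6, all carried Flk2-cre and at least 1 floxed Cxcr4 allele, and the labels give an age of 6 weeks. Flk2-cre deletes in multipotent hematopoietic progenitors and their progeny and not in MSPCs, so that the comparison asks what niche cells express when blood progenitors lack CXCR4. The cells were sorted without CD45, Ter119, CD31 and CD144 and with PDGFRα and SCF-GFP, a reporter in the Kitl locus. This reporter requires a Kitl-GFP allele, which the sample titles do not name. In the paper, crossing knockout mice with KitlGFP/+ mice lowered membrane SCF on niche cells to the wild-type level. Each sample title also holds a number, and the labels give it no meaning. CTR2, CTR4, cKO2 and cKO4 have numbers from 26 to 32, while the numbers of CTR1, CTR3, cKO1 and cKO3 run from 67 to 86.

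Total counts lay between 31047344 and 38216877 per library. The 9 MSPC markers summed to 52928 to 65421 CPM (counts scaled by library size to a common total) in CTR and 54742 to 66263 CPM in cKO, led by Cxcl12 and Lepr. The 19 blood cell markers summed to 72.0 to 215.8 CPM in CTR and 165.6 to 270.2 CPM in cKO, a mean of 143.6 against 204.4 CPM. Of the 16 of them with at least 10 counts, 13 were above 0 in their difference (cKO minus CTR), where 50.3% of all genes tested were below 0. None of them had an unadjusted p under 0.05 in edgeR, against 4.56% of all genes. Hemoglobin genes held most of the sum (Hbb-bs with 949 to 3713 and Hba-a1 with 578 to 2003 counts), Cd3e had 0 counts in all libraries, and Ptprc, which encodes CD45, had 0 to 32. The part of blood cell RNA in the differences given below was not tested. The 7 endothelial markers summed to 5.06 to 14.1 CPM in CTR and 5.32 to 8.94 CPM in cKO. The 9 osteoblast and chondrocyte markers summed to 7808 to 11534 CPM in CTR and 8402 to 13798 CPM in cKO, nearly all of it Ibsp, and Acan was at 0. Cxcr4, deleted in the blood lineage and not in these cells, was counted 4 to 19 times per CTR library and 0 to 12 times per cKO library, which does not check the genotype labels.

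The Il6 promoter is shown because Il6 was counted in 1 genotype only, and the Socs3 site because Socs3 is a gene that STAT3 induces and was the most abundant of the 9 per length. The sequences come from the RefSeq promoter table on GRCm38.p6, in which all 9 genes had an entry and Lifr and Il11ra1 had 2. The Il6 stretch holds the 250 bases before its start at chr5:30012864-30013113 on the plus strand, and the Socs3 stretch holds 29 bases at chr11:117969502-117969530 on the minus strand. Capitals mark motif matches.
Il6: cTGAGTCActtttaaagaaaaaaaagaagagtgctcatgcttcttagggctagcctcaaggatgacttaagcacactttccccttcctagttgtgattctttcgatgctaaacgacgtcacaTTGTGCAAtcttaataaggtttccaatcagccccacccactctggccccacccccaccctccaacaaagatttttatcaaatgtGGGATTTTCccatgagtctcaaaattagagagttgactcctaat
Socs3: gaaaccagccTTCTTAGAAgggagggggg

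Both strands were searched in the 250 bases before each start for 5 motifs. The Il6 window held the AP-1 motif TGANTCA at -249 to -243, the C/EBP motif TTGNNCAA at -128 to -121 and the NF-kB motif GGGANTTTC at -44 to -36 from the start. Of the 32851 promoter windows in the table, 6.75% held the AP-1 motif, 5.65% the C/EBP motif and 0.941% the NF-kB motif. The Socs3 window held the STAT motif TTCNNNGAA at -154 to -146, which 7.02% of the windows held. Lif held an AP-1 motif at -228 to -222, and none of these motifs, nor the CRE motif TGACGTCA found in 1.55% of the windows, was in the windows of the other 6 genes. No matches overlapped, and a match describes letters in the window and not binding.

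Per kilobase of exon, which allows levels of different genes to be compared, Socs3 was the highest of the 9 genes and the cytokines Lif and Il6 were the lowest. Socs3 stood at 188.1 ± 83.6 CPM per kb (SD, n = 8 libraries) and Lifr at 58.9 ± 10.6 CPM per kb. Il6st, the shared gp130 chain, stood at 40.8 ± 11.8 CPM per kb, and Stat3 at 39.7 ± 4.81 CPM per kb. Each step from Socs3 to Lifr and from Lifr to Il6st held in 8 of 8 libraries, whereas Il6st was above Stat3 in 4 of 8 and the 2 did not differ beyond their spread. Osmr and Il11ra1 followed at 13.8 ± 4.37 and 12.4 ± 1.78 CPM per kb, again with each above the other in 4 of 8 libraries. The level of Il6ra, the chain that binds IL-6 itself, was 29.5-fold below that of Il11ra1 at 0.422 ± 0.155 CPM per kb. Lif (0.376 ± 0.265 CPM per kb) did not differ from Il6ra beyond its spread, with Il6ra above Lif in 4 of 8 libraries. Il6 averaged 0.209 ± 0.255 CPM per kb, an SD that spans CTR libraries with counts and cKO libraries at 0. Lif was above Il6 in 5 of 8 libraries. In cKO, Il6ra ran from 0.169 to 0.534 CPM per kb and Il6 was at 0. In CTR, Il6ra was above Il6 in CTR1 and CTR2 and below it in CTR3 and CTR4.

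**Figure D1:**
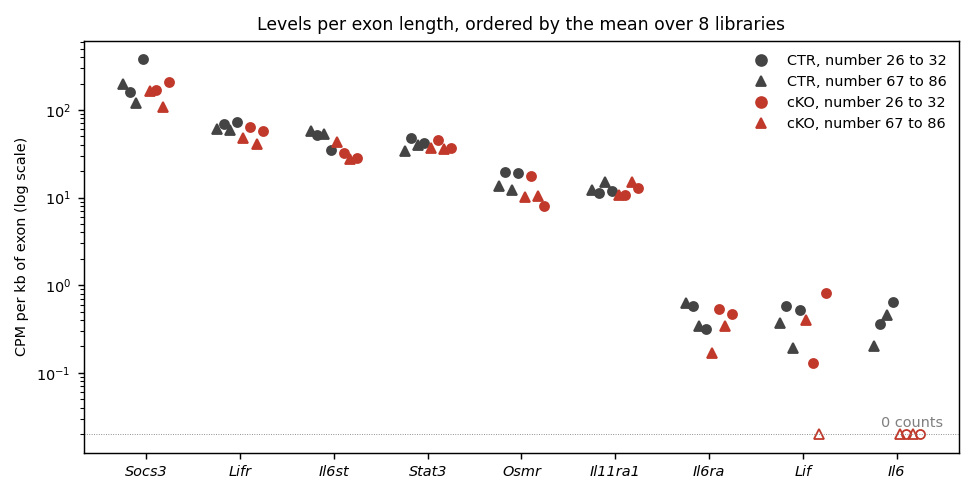
Level per exon length (CPM per kb, log axis) of each gene in each library, ordered by the mean over 8 libraries, with CTR in grey, cKO in red, circles for title numbers 26 to 32 and triangles for 67 to 86. Socs3 lay between 109.1 and 376.7 CPM per kb, and open symbols on the dotted line are libraries with 0 counts, 4 for Il6 and 1 for Lif.

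Lifr and Il6st were thus expressed in the same range, with a ratio of Il6st to Lifr per kb of 0.70 ± 0.20 (SD, n = 8). The ratio of Il6st to Il6ra ranged from 59.6 to 255.9. Among the 52403 genes with an exon length, 99.7% lay below Socs3 in mean CPM per kb, 98.7% below Lifr and 97.9% below Il6st. Il6ra lay above 73.2% of genes and Il6 above 69.1%, most of them genes with few or no counts in these cells.

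Il6 (ENSMUSG00000025746.11, chromosome 5 of GRCm38 from 30013114 to 30019981, plus strand) encodes the cytokine that gives the family its name. Its counts were 15, 29, 36 and 59 in CTR1 to CTR4, and 0 in each of the 4 cKO libraries. As CPM, these were 0.486, 0.883, 1.11 and 1.58 CPM, a mean of 1.02 ± 0.456 CPM in CTR (SD, n = 4). Every CTR library held Il6 and no cKO library did. By counting error alone, a count of 0 allows a level of up to 3 counts. This is 0.0783 to 0.0921 CPM in the single cKO libraries and 0.0216 CPM over the group. Over the group, CTR held 139 counts or 1.04 CPM of Il6, which was 48.3-fold above the group floor (counting error only). The floor takes each count as an independent molecule, and whether a count is a read or a read pair is not given in the sources used here. Counts in these libraries spread more than by counting error, since Lif ran from 0 to 136 counts within cKO. The ratio to the floor is therefore not a lower bound on the difference between mice. With any library left out the ratio was between 35.0-fold and 56.1-fold, which does not test the floor itself.

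Of the 9 genes, only Il6 had all cKO libraries below all CTR libraries, as did 1.14% of the 21310 genes tested. The pattern of 0 counts in all cKO libraries with a count in all CTR libraries was held by 8 of the 21310 genes (0.0375%), and the opposite pattern by 29 genes. A further cut was set at 15, the lowest CTR count of Il6 itself, so that Il6 passed it by construction. With at least 15 counts in every library of the other genotype, Il6 was the only gene of the first kind. Of the second kind were 2 genes, Themis2 and a gene without a matched symbol. Since the cut came from Il6, nothing is read from its standing alone. Themis2 was named after its values were seen.

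Counts of 0 were common at the mean level of Il6 over all 8 libraries, a mean that its own 4 libraries at 0 lower. For genes of 1 to 2 CPM, where the CTR mean of Il6 of 1.02 CPM lies, 4.82% of library values were at 0. Of the 1661 genes with a mean within 1.5-fold of that of Il6 (0.338 to 0.762 CPM), 1060 (63.8%) had 0 counts in at least 1 library, and 174 (10.5%) in 4 or more. At the level of Lif, 277 of 1334 genes (20.8%) had a library at 0, and 10 (0.750%) had 4 or more. The zeros of these genes were not split by genotype.

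**Figure D2:**
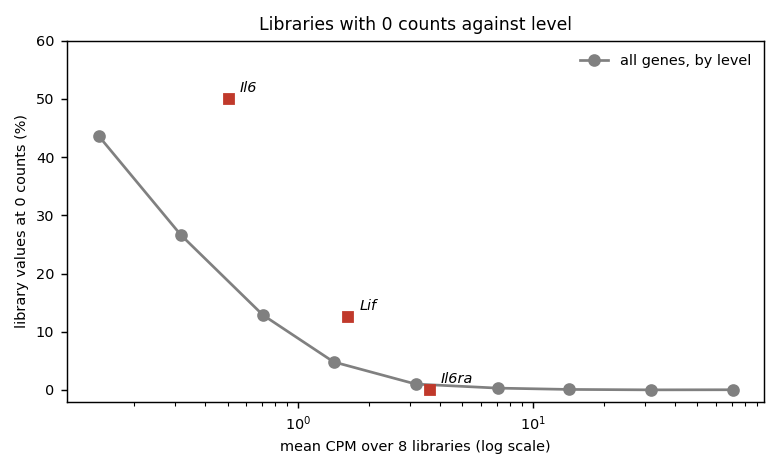
Share of library values at 0 counts (%) against the mean CPM over 8 libraries (log axis) for all genes in bins of level (grey) and for Il6, Lif and Il6ra (red squares). The share was 26.6% for genes of 0.2 to 0.5 CPM and 12.9% for 0.5 to 1 CPM, and Il6, with 4 of 8 libraries at 0, lies above both. The mean that places Il6 on the axis includes these 4 libraries.

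Lif (ENSMUSG00000034394.14, chromosome 11 from 4257557 to 4272514, plus strand) encodes leukemia inhibitory factor, which signals through LIFR and gp130. Its counts were 49, 83, 27 and 85 in CTR1 to CTR4, and 57, 20, 0 and 136 in cKO1 to cKO4. Its level was 1.81 ± 0.759 CPM in CTR against 1.46 ± 1.57 CPM in cKO (SD, n = 4 libraries each). Both the lowest and the highest library were cKO, and the genotypes overlapped. The log2 difference (cKO minus CTR) was -0.30 with a standard error of 1.06, and ran from -1.23 without cKO4 to 0.11 without cKO3, the library at 0. It was -1.30 with a replicate block and -1.73 by limma-voom.

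Il6st (ENSMUSG00000021756.12, chromosome 13 from 112464070 to 112510086, plus strand) encodes gp130, the chain shared by the family. Its levels were 630.9, 568.5, 585.5 and 387.0 CPM in CTR1 to CTR4, and 480.1, 353.5, 302.7 and 315.1 CPM in cKO1 to cKO4. Only CTR4 and cKO1 crossed between the genotypes. The mean was 543.0 ± 107.3 CPM in CTR against 362.9 ± 81.1 CPM in cKO (SD, n = 4 libraries each), and the log2 difference of -0.58 (standard error 0.18) was the largest in size relative to its error among the 8 genes other than Il6. With each library left out it stayed between -0.75 and -0.50. Within title numbers 26 to 32 the log2 difference of Il6st was -0.52, and within 67 to 86 it was -0.64.

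The chains that pair with gp130 for LIF and oncostatin M were also lower in cKO on average. Lifr (ENSMUSG00000054263.11, chromosome 15 from 7090614 to 7197489, plus strand) had 650.4, 747.8, 632.6 and 783.2 CPM in CTR1 to CTR4, and 509.3, 688.7, 442.1 and 624.2 CPM in cKO1 to cKO4. In each title number range both cKO libraries had less Lifr than both CTR libraries, while the genotypes overlapped over all 8. The same within-range order held for Il6, Il6st and Osmr. Its share over all genes was not counted, and nothing is read from it, since the genes were selected on this contrast. The log2 difference of Lifr was -0.31 (standard error 0.14), and lay between -0.42 and -0.21 with each library left out.

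Osmr (ENSMUSG00000022146.12, chromosome 15 from 6813577 to 6874969, minus strand) encodes the oncostatin M receptor and lies next to Lifr on chromosome 15. It had 163.6, 235.5, 148.3 and 230.7 CPM in CTR1 to CTR4, and 122.4, 211.1, 125.1 and 97.5 CPM in cKO1 to cKO4. cKO1, cKO3 and cKO4 lay below every CTR library, and cKO2 lay among the CTR libraries. The log2 difference of Osmr was -0.48 (standard error 0.24), and -0.76 without cKO2, with values of -0.59 and -0.33 within the lower and the higher title numbers.

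The chains that bind IL-6 and IL-11 showed smaller differences than their errors. Il6ra (ENSMUSG00000027947.11, chromosome 3 from 89864059 to 89913196, minus strand) had 5.42, 4.99, 2.94 and 2.76 CPM in CTR1 to CTR4, and 1.46, 4.61, 2.95 and 4.04 CPM in cKO1 to cKO4. Its log2 difference was -0.30 (standard error 0.42), and turned from 0.16 within 26 to 32 to -0.92 within 67 to 86. Il11ra1 (ENSMUSG00000073889.10, chromosome 4 from 41699989 to 41769474, plus strand) had 56.2 ± 7.77 CPM in CTR against 55.0 ± 9.26 CPM in cKO (SD, n = 4 libraries each). Its log2 difference was -0.03 (standard error 0.15), and changed sign with the library left out, from -0.14 to 0.07. Of the stretches of 50 bases in Il11ra1 transcripts, 46.3% also lie in transcripts of other genes, Gm13305 and Il11ra2, so that its counts are uncertain. These copies had 0 to 11 and 0 to 10 counts.

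Stat3 and Socs3 stand after the receptor. Stat3 (ENSMUSG00000004040.16, chromosome 11 from 100885098 to 100939540, minus strand) had 322.3, 450.9, 375.1 and 396.4 CPM in CTR1 to CTR4, and 353.7, 435.9, 339.9 and 354.7 CPM in cKO1 to cKO4. These values overlapped almost wholly, with a log2 difference of -0.06 (standard error 0.12) that was 0.03 without CTR2. Stat3 also varied least of the 9 genes between mice, with a coefficient of variation of 12.1% over the 8 libraries.

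Socs3 (ENSMUSG00000053113.3, chromosome 11 from 117966079 to 117970047, minus strand) had 573.7, 460.4, 344.2 and 1089 CPM in CTR1 to CTR4, and 477.2, 482.9, 315.4 and 607.7 CPM in cKO1 to cKO4. CTR4 stood far above the other 7 libraries. The log2 difference of -0.39 (standard error 0.33) rested on that library, since it was 0.04 without CTR4. The coefficient of variation of Socs3 was 44.5%, and of the genes detected in all libraries it varied the most.

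**Figure D3:**
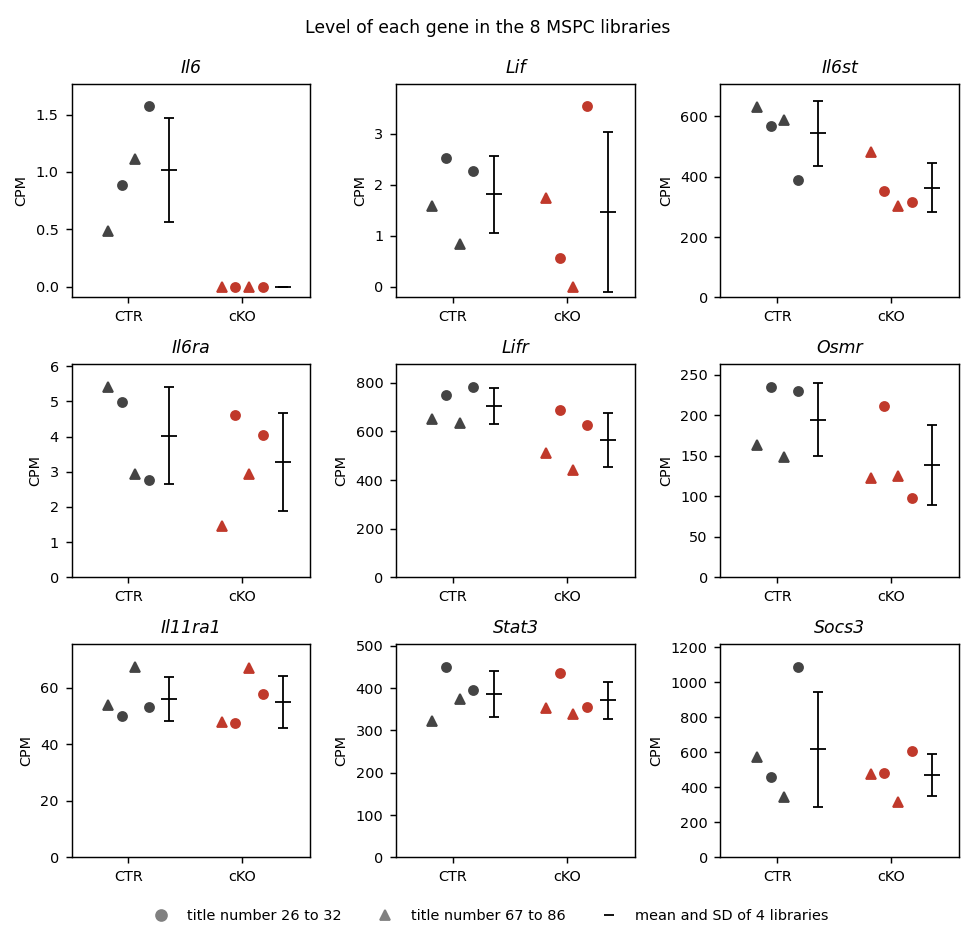
CPM of each of the 9 genes in each CTR (grey) and cKO (red) library, with circles for title numbers 26 to 32, triangles for 67 to 86, and bars for the mean and SD of 4 libraries. Il6 is at 0 in all 4 cKO libraries, Il6st overlaps only through CTR4 and cKO1, and Socs3 reaches 1089 CPM in CTR4.

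All 9 genes had a fitted difference below 0 between genotypes, as did 50.3% of all genes tested. The median log2 difference over the 8 genes other than Il6 was -0.31, against -0.00 over all genes. Since the genes were selected on this contrast, nothing is read from these counts. In bulk samples, fewer cells with a transcript and less of it per cell cannot be told apart.

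**Figure D4:**
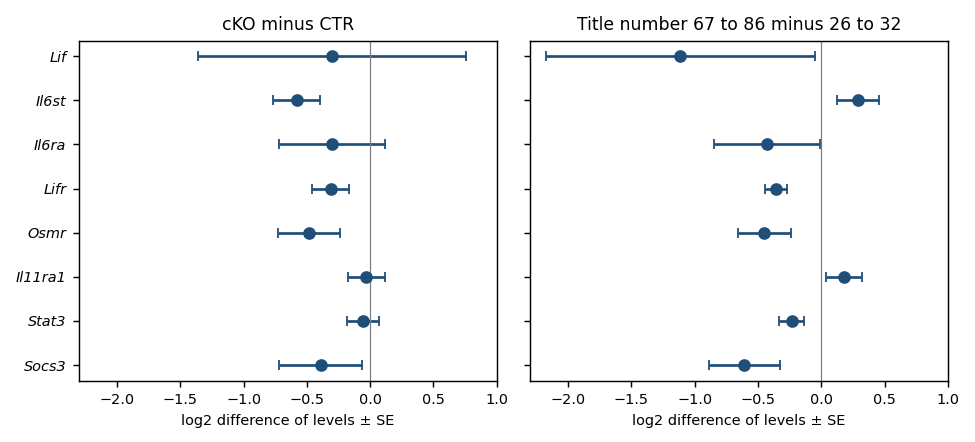
Log2 difference of levels with its standard error for the 8 genes other than Il6, between genotypes (left, cKO minus CTR) and between title number ranges (right, 67 to 86 minus 26 to 32, genotype as a covariate). Il6st is at -0.58 on the left and 0.29 on the right, and Lifr is at -0.31 and -0.36.

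The title number ranges hold 2 libraries of each genotype and played no part in choosing the genes, so that this contrast was tested. Lifr was lower in the libraries with numbers 67 to 86 than in those with 26 to 32, at 558.6 ± 99.8 against 711.0 ± 69.8 CPM (SD, n = 4 libraries each). Its log2 difference was -0.36 (standard error 0.085), which did not pass the threshold in edgeR's quasi-likelihood test (Benjamini-Hochberg, unadjusted p = 0.00222, adjusted p = 0.313). DESeq2's Wald test gave an adjusted p of 0.0128 for Lifr, and over the alternatives the adjusted p lay between 0.0128 and 0.591. With each library left out, the log2 difference of Lifr lay between -0.39 and -0.30.

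Stat3 was also lower in the higher numbers, at 347.7 ± 22.3 against 409.5 ± 43.2 CPM (SD, n = 4 libraries each), with a log2 difference of -0.23 (standard error 0.099, adjusted p = 0.562 in edgeR). Within each genotype, both libraries of the higher range had less Lifr and less Stat3 than both of the lower range. This held for 2 of the 9 genes and for 5.1% of all genes tested. The margin for Stat3 in cKO was narrow, with cKO1 at 353.7 and cKO4 at 354.7 CPM.

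Socs3 (-0.61, standard error 0.28) and Osmr (-0.45, standard error 0.21) had larger differences between the ranges with larger errors, and an adjusted p of 0.577 each in edgeR. Single libraries weighed on both, since Socs3 was at -0.28 without CTR4 and Osmr at -0.23 without cKO2. Il6st went the other way, with 499.8 ± 145.8 CPM in the higher and 406.0 ± 112.2 CPM in the lower range, a log2 difference of 0.29 (standard error 0.16, adjusted p = 0.637 in edgeR). Il11ra1 was at 0.18 (standard error 0.14), Il6ra at -0.43 (standard error 0.42) and Lif at -1.11 (standard error 1.06), with adjusted p-values of 0.715, 0.798 and 0.792 in edgeR. Il6, counted in CTR only, had 15 and 36 counts in the higher and 29 and 59 in the lower range.

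By edgeR's quasi-likelihood test, 0 of the 9 genes passed the adjusted threshold between the ranges and 2 genes of 21310 did (0.00939%). Lifr and Stat3 had an unadjusted p under 0.05, against 8.71% of all genes, and DESeq2's Wald test called Lifr alone of the 9, against 2.32% of 15526 genes. limma-voom called 0 of the 9. The median log2 difference was -0.43 over the 9 genes and -0.04 over all genes. For the interaction of genotype and title number, edgeR called 0 of 21310 genes (0%), with 721 at an unadjusted p under 0.05 and 36 called by DESeq2's Wald test. None of the 9 had an unadjusted p under 0.05 for it in edgeR.

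From mouse to mouse, 36 pairs of the 9 genes were compared in log2 CPM over the 8 libraries, and none passed 0.05 after adjustment (exact permutation over 40320 pairings, two-sided, Benjamini-Hochberg). Unadjusted, 2 pairs passed by Pearson's r and 2 by Spearman's rho. Lifr and Osmr, neighbors on chromosome 15, had r = 0.73 (exact permutation p = 0.0380, adjusted p = 0.471) and rho = 0.88 (exact permutation p = 0.00724, adjusted p = 0.261). Without cKO1 and cKO3, the 2 libraries farthest from the median of Lifr, their r was 0.86, and after centering on the genotype means it was 0.57. Osmr and Stat3 had r = 0.73 (exact permutation p = 0.0446, adjusted p = 0.471), rho = 0.64 (exact permutation p = 0.0962, adjusted p = 0.577) and r = 0.69 without CTR2 and cKO4. Il6st had r = 0.32 to both Lifr and Osmr (exact permutation p = 0.433 and 0.430, adjusted p = 0.721 for both) and rho = 0.36 to both (exact permutation p = 0.389). After centering on the means of the title number ranges, r was 0.85 for Il6st and Lifr and 0.57 for Il6st and Osmr, and after centering on the genotype means it was -0.29 and -0.21. Stat3 and Socs3, a transcription factor and its target, had r = 0.12 (exact permutation p = 0.785, adjusted p = 0.883) and rho = 0.07 (exact permutation p = 0.882). Il6 splits the libraries by genotype, so that no r is given for its pairs.

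Among 9405 genes whose mean was 10 CPM or more, the patterns most like that of Il6st over the 8 libraries were those of Lsm2 (r = 0.98), Srm (0.95), Zmynd19 (0.94), mt-Rnr2 (0.94) and Cct6a (0.93). Srm, which encodes spermidine synthase, was at 42.0 ± 5.80 CPM in CTR against 29.1 ± 5.17 CPM in cKO (SD, n = 4 libraries each). For Il6 the most alike of 9406 genes were Ddhd1 (r = 0.96), mt-Co1 (0.94), Smarca5 (0.94), Isyna1 (0.93) and Ipmk (0.92). These follow the 0 counts of the cKO libraries, and each differed between genotypes by far less than Il6. Ipmk, an inositol phosphate kinase gene, was at 26.9 ± 7.75 CPM in CTR against 13.7 ± 1.11 CPM in cKO (SD, n = 4 libraries each). The points share libraries and genotypes, and likeness was ranked without a test.

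The other genes of the pathway were 73, of which 71 had at least 10 counts in all. By edgeR's quasi-likelihood test, 0 of the 71 passed the adjusted threshold between genotypes, where 1 of 21310 genes did (0.00469%). Between title number ranges 0 of the 71 passed it, where 2 of 21310 genes did (0.00939%). DESeq2's Wald test called 0 between genotypes, against 0.176% of 21027 genes, and 4 between ranges, against 2.32% of 15526 genes. At an unadjusted p under 0.05 in edgeR there were 6 between genotypes (8.45%), against 4.56% of all genes. Between ranges there were 12 (16.9%), against 8.71% of all genes, 4 higher and 8 lower in the higher numbers. The median log2 difference between genotypes was -0.08 over the 71. For each list, the 2 genes of the highest mean CPM are given, not corrected for length.

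Of 11 other ligands of the family, Il31 had 0 counts in all libraries, Osm had at most 5 counts in a library and Il11 at most 15. Ctf1 (cardiotrophin 1) was at 5.14 ± 1.09 CPM in CTR against 3.50 ± 1.18 CPM in cKO (SD, n = 4 libraries each), followed by Clcf1 at 3.18 ± 2.02 and 3.63 ± 1.25 CPM. Ctf2, with 0 to 13 counts, was among the 6 with an unadjusted p under 0.05. Of 4 other receptors, Cntfr (6.31 ± 3.04 CPM in CTR against 3.98 ± 2.85 CPM in cKO) and Il27ra (2.39 ± 1.20 and 3.21 ± 2.00 CPM) are given, and 0 of the 4 had an unadjusted p under 0.05 between genotypes.

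Jak1, the main kinase bound to gp130, stood at 388.7 ± 25.7 CPM in CTR against 362.0 ± 26.4 CPM in cKO (SD, n = 4 libraries each), and Stat5b at 247.4 ± 22.2 and 258.6 ± 32.2 CPM. Among 8 adaptors and shedding proteases, Shc1 and Adam10 were at log2 differences of 0.06 and -0.10. Ptpn11, which encodes the phosphatase SHP2 that docks on gp130, had a log2 difference of -0.30 (standard error 0.12, adjusted p = 0.848 in edgeR).

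Of 12 inhibitors other than Socs3, 0 had an unadjusted p under 0.05 between genotypes, and the 2 highest, Ptpn1 and Pias1, were at log2 differences of -0.33 and 0.03. Of 7 regulators of Il6 transcription or mRNA decay, 6 had a difference below 0, as had 50.3% of all genes. Zfp36 (tristetraprolin), which promotes decay of AU-rich mRNAs, was at 205.7 ± 18.7 CPM in CTR against 159.3 ± 19.0 CPM in cKO (SD, n = 4 libraries each), a log2 difference of -0.37 (standard error 0.11, adjusted p = 0.848 in edgeR). Cebpb, a transcription factor of the C/EBP family, was at 209.9 ± 39.0 and 195.4 ± 40.6 CPM.

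Of 25 genes known as STAT3 targets, 16 had a difference below 0 between genotypes, a direction held by 50.3% of all genes, and 9 above. The acute phase gene Hp was at 7023 ± 1464 CPM in CTR against 6902 ± 781 CPM in cKO (SD, n = 4 libraries each), and Steap4 at 1432 ± 106 and 1478 ± 132 CPM. Il4ra had a log2 difference of -0.59 (standard error 0.25), and Fos of -0.91 (standard error 0.27), both with an adjusted p of 0.848 in edgeR. Between title number ranges, DESeq2's Wald test called Jak2 (-0.69, adjusted p = 0.00832), Nfkb1 (-0.45, adjusted p = 0.0175), Myc (-0.66, adjusted p = 0.0238) and Lbp (-0.32, adjusted p = 0.00819), named after their values were seen. Each was lower in the higher numbers, as Lifr was.

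Immediate early genes, which cells induce within minutes of a stimulus or of handling, had a lower sum in cKO than in CTR. The 27 genes of that list hold Zfp36, Fos and Junb of the lists above, and also the heat shock genes Hspa1a, Hspa1b and Dnajb1. They summed to 2064 to 2189 CPM in CTR and 1541 to 1853 CPM in cKO, without overlap. The heat shock genes had log2 differences of -0.71, -0.11 and -0.14 between genotypes. Of the 27, 24 had a difference below 0 between genotypes, as had 50.3% of all genes. An unadjusted p under 0.05 was found for 7 of the 27, against 4.56% of all genes, and 0 passed the adjusted threshold in edgeR (DESeq2's Wald test called 1). Between title number ranges the sums overlapped, at 1541 to 2110 CPM for the lower and 1645 to 2189 CPM for the higher numbers. The part of these genes in the differences of Il6, Socs3, Fos and Zfp36 was not tested.

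**Figure D5:**
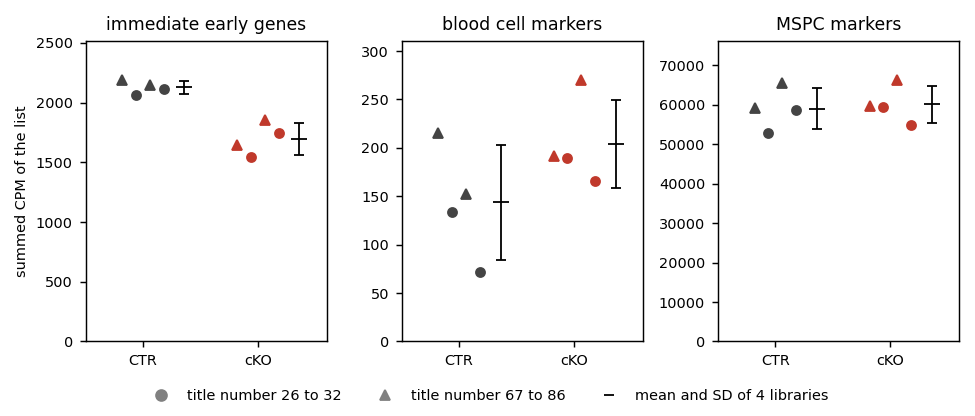
Summed CPM of the 27 genes of the immediate early list (heat shock genes included), the 19 blood cell markers and the 9 MSPC markers in each library. Grey is CTR, red is cKO, circles are title numbers 26 to 32, triangles are 67 to 86, and bars are mean and SD of 4 libraries. The immediate early sum is at 2064 CPM or more in all CTR libraries and at 1853 CPM or less in all cKO libraries, and the marker sums overlap.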

How the data were processed

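The 8 libraries hold RNA of sorted MSPCs, 4 from CTR and 4 from cKO mice. After trimming, the authors used HISAT2 to align reads to GRCm38 (mm10) and HTSeq to count them per gene, and deposited raw counts. Whether counting used strand is not given in the sources used here. Exon lengths and coordinates were taken from GENCODE M21 (GRCm38), another release than the methods name.

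Genes with at least 10 summed counts (21310) were tested with edgeR 4.0.16 (TMM, quasi-likelihood, Benjamini-Hochberg, threshold 0.05) in R 4.3.3. Genotype was fitted alone and the title number range with genotype as a covariate. CPM are TMM-scaled, and log2 CPM has a prior count of 2. Title numbers are not called a batch, since the labels do not say what they are. Alternatives were DESeq2 1.42.0, limma-voom (limma 3.58.1), other scalings and filters, and each library left out. The scripts were tested on simulated data with 200 changed genes. Between genotypes, edgeR called 44% of them at a log2 change of 1 and 80.5% at 2. Between title number ranges it called 59.5% and 82.5%. A gene that was not called can therefore still differ.

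The 9 genes and all lists were chosen with earlier results of these data known. Named beside them were, per list, genes with an unadjusted p under 0.05 between genotypes and the 2 most abundant, and the 5 genes most like Il6 and Il6st. Exons overlap an antisense gene in Il6ra (2.8% of bases) and Stat5a in Stat3 (0.756%). Values of some listed genes are not reported here.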

Additional observations from a re-analysis of the deposited data

Results flagged for a closer look

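Stat3 in the cKO libraries was the 1 of 17 groups of 4 libraries with a library far from the others. cKO2, at 435.9 CPM, stood above 339.9 to 354.7 CPM in the other 3, a gap of 0.847 of the whole range, past the 95% critical value of Dixon's test for 4 values. Chance marks about 1 in 20 groups.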

How the results depend on the processing

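The ratio of Il6 in CTR to the floor stayed within 1.5-fold under the 9 alternatives run, all of which kept the floor of 3 counts. The genotype differences of the other 8 genes moved by less than the spread between replicates in every alternative run, with signs that turned in some of them for Lif, Il6ra, Il11ra1, Stat3 and Socs3. For Lifr between title number ranges, DESeq2's Wald test (log2 difference -0.35) passed the threshold and the other alternatives did not. Counts of genes called depended on the tool and the library, and the cause was not tested. Between genotypes, 1 gene was called, against 37 by DESeq2's Wald test, 42 by its likelihood ratio test with title number as a term, 0 with a count above 0 in every library, and 0 to 1 with a library left out. That likelihood ratio test also called 1 other pathway gene, Fos. Between title number ranges 2 genes were called, against 4 without a filter, 360 by DESeq2's Wald test (4 of them pathway genes), 1 by limma-voom, and 0 to 4 with a library left out. The interaction had 0 calls, 36 by DESeq2's Wald test and 0 to 3 with a library left out. The replicate block left 0 genes called between genotypes. The replicate numbers were not taken to pair the mice. Deviations of same-numbered libraries correlated by 0.0542, 0.101, 0.0472 and -0.00196. Yet 6 of 8 libraries correlated best with their own number, and same-numbered libraries had neighboring title numbers. These values cannot settle whether the mice were paired. No pair of the 9 genes passed 0.05 adjusted under any centering or scaling run. Depth limits Il6, Lif and Il6ra, with at most 59, 136 and 167 counts in a library.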
